A study of Oryza sativa with 36 samples.

Results

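Ascorbate peroxidases are haem enzymes of plants and algae that reduce hydrogen peroxide to water with ascorbate as the electron donor. The oxidised ascorbate is returned by monodehydroascorbate reductase directly, or by dehydroascorbate reductase with glutathione, which glutathione reductase regenerates. Rice holds cytosolic, peroxisomal and plastid forms, and in leaves the plastid forms act on the hydrogen peroxide that arises when photosystem I passes electrons to oxygen. APx2 (LOC4344397) is a cytosolic form, APx7 (LOC4335896) is the form of the chloroplast stroma, and APx8 (LOC4329643) is bound to the thylakoid membrane.

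These genes were chosen by their measured levels over the 12 groups of the study, as a cytosolic form set against the plastid forms. Their levels and differences are therefore given as a description, with standard errors and no p-value. All probe sets annotated to them were taken, which gave 6 probe sets of 3 genes among 57194 rice probe sets, of which 22436 carried exactly 1 gene name (17905 genes). APx7 and APx8 each had 1 probe set. APx2 had 4, numbered here from the highest to the lowest mean signal as set 1, called the leading set, to set 4. The name of set 2 ends in _x_at, which in the array maker's naming marks probes that can also bind transcripts of other genes. All 6 passed the filter on low signal in leaf, and all but APx2 set 4 passed it in root.

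The study measured total RNA of the super hybrid rice LYP9 and of its parents, 9311 and PA64s (a male-sterile line), on single-colour Affymetrix arrays. Leaf and root were sampled from plants under a nutrient-sufficient and a nutrient-deficient state, which gave 12 groups of 3 arrays and 36 arrays in all. All groups shared the first 5 days in a nutrient soil mixture and the later move to poor soil in 12 barrels, with 15 seedlings of each variety in a barrel. At 14 days of age 6 barrels received 10 g of urea and 10 g of compound fertiliser, and the other barrels, the nutrient-deficient state, received none. The design text names the early basis of hybrid vigour as its aim. The labels do not say whether the 3 arrays of a group came from separate plants or barrels, so errors measure only the spread between arrays, which may be technical. In RNA from whole tissue, fewer cells of a type and less RNA per cell cannot be told apart.

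Array medians lay between 66.94 and 75.38 intensity units in leaf and between 65.97 and 74.48 in root, and the lowest correlation of log2 values between arrays of a group was 0.9735. The number of arrays limits the precision of every value. The tissue labels were checked against marker genes. The summed intensity of 6 photosynthesis genes was 50763.1 to 77614.7 in leaf and 296.8 to 1167.3 in root. The 5 root genes (the silicon transporters Lsi1 and Lsi2, CASP1, the ammonium transporter AMT1;2 and the nicotianamine synthase NAS1) summed to 7360.4 to 21121.4 in root and 553.9 to 1144.8 in leaf. Levels below are log2 intensities, and nutrient differences are nutrient-sufficient minus nutrient-deficient group means with the standard error (SE) from limma.

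APx8, the thylakoid form, had a higher signal in fertilised leaf of every genotype and a signal near the filter level in root. In nutrient-deficient leaf of 9311 its 3 arrays read 10.95, 11.38 and 10.96 (mean 11.10 ± 0.24, SD), and in nutrient-sufficient leaf 12.62, 12.55 and 12.42 (12.53 ± 0.10). In LYP9 leaf the nutrient-deficient arrays read 11.76, 11.77 and 11.30 (11.61 ± 0.27) and the nutrient-sufficient arrays 12.34, 12.60 and 12.21 (12.39 ± 0.20). In PA64s leaf they read 10.59, 11.46 and 11.10 (11.05 ± 0.44) and 12.16, 12.35 and 12.19 (12.23 ± 0.10). All 9 nutrient-sufficient leaf arrays lay above all 9 nutrient-deficient ones, and the nutrient-deficient groups were the more spread.

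The nutrient difference of APx8 in leaf was 1.43 ± 0.20 in 9311 (a 2.69-fold higher signal). It was 0.78 ± 0.20 in LYP9 (1.71-fold) and 1.18 ± 0.20 in PA64s (2.27-fold). The arrays of both states were apart, higher in the nutrient-sufficient state, in all 3 genotypes, as they were for 6.86% of the 34316 leaf probe sets that passed the filter. The genes were chosen on this contrast, so nothing is read from that share. For comparison of size, 511 probe sets had a difference at least as high in 9311, 1810 in LYP9 and 638 in PA64s.

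The leaf groups of APx8 ran from nutrient-sufficient 9311, LYP9 and PA64s down to nutrient-deficient LYP9, 9311 and PA64s. Neighbours in this order overlapped in their arrays except nutrient-sufficient PA64s (lowest 12.16) and nutrient-deficient LYP9 (highest 11.77). The summed intensity of the photosynthesis markers was also higher in nutrient-sufficient leaf, at 53562.7 to 63102.6 in nutrient-deficient and 73739 to 77614.7 in nutrient-sufficient 9311 leaf. In LYP9 leaf it was 62215.1 to 68697.4 and 73997.8 to 74609.5, and in PA64s leaf 50763.1 to 61763.8 and 73181.5 to 73881.6. Of the 5 markers kept in leaf, 3 were called higher in 9311, 0 in LYP9 and 3 in PA64s, with median differences of 0.35, 0.20 and 0.45. Of all 34316 probe sets kept in leaf, 2731, 2127 and 1720 were called higher. Over all 6 markers the group mean was higher for 5 in 9311 (not RBCS1, whose means were 3.35 and 3.19), 5 in LYP9 (not PSAG, 10.91 and 10.84) and 6 in PA64s. A sum of intensities is weighted to the brightest probe sets. The part of these markers in the APx8 difference was not tested.

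In root the 18 arrays of APx8 lay between 5.58 and 6.19, and the level that a probe set had to reach to pass the filter was 5.70. The nutrient differences were -0.12 ± 0.12 in 9311, 0.01 ± 0.12 in LYP9 and -0.17 ± 0.12 in PA64s, and the arrays of both states overlapped in each genotype. The light-harvesting gene CAB2R read 9.08 and 9.41 in 2 of the 3 nutrient-sufficient root arrays of 9311 and 6.55 in the other array. APx8 read 5.97, 5.85 and 5.90 in the same arrays, in the same order.

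**Figure D1:**
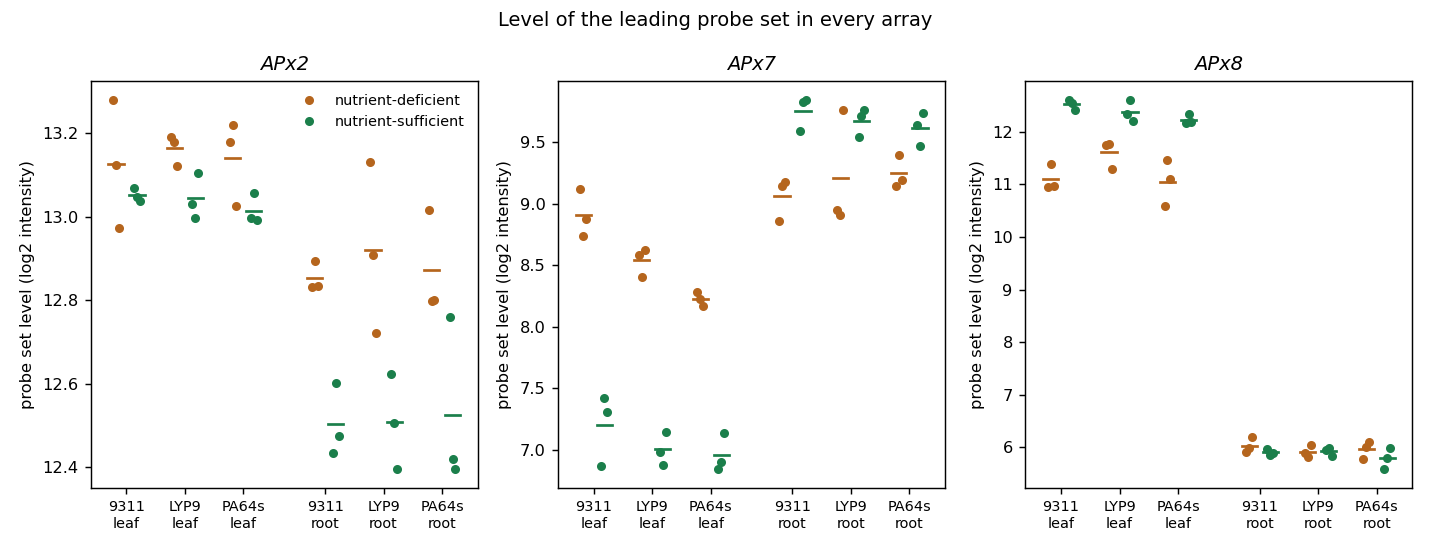
Each panel shows 1 gene by its leading probe set, with log2 intensity on the vertical axis and the 12 groups (genotype and tissue, coloured by nutrient state) on the horizontal axis. Points are arrays and bars are group means; APx8 is at least 10.59 in every leaf array and at most 6.19 in every root array, APx7 separates the leaf states the other way, and APx2 runs from 12.40 to 13.28 (each panel has its own vertical range).

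APx7, the stromal form, ran opposite to APx8 in leaf. In nutrient-deficient leaf of 9311 its arrays read 9.12, 8.74 and 8.88 (8.91 ± 0.19), against 6.87, 7.42 and 7.31 (7.20 ± 0.29) in nutrient-sufficient leaf. The LYP9 leaf arrays read 8.58, 8.41 and 8.63 (8.54 ± 0.12) and 6.98, 6.88 and 7.15 (7.0 ± 0.14). The PA64s leaf arrays read 8.28, 8.22 and 8.17 (8.23 ± 0.05) and 6.84, 6.90 and 7.14 (6.96 ± 0.16). All 9 nutrient-sufficient leaf arrays lay below all 9 nutrient-deficient ones.

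The leaf difference of APx7 was -1.71 ± 0.15 in 9311, a signal 3.28-fold lower in the nutrient-sufficient state. It was -1.54 ± 0.15 in LYP9 (2.90-fold lower) and -1.27 ± 0.15 in PA64s (2.41-fold lower). The arrays were apart in this direction in all 3 genotypes, as for 3% of leaf probe sets, a share printed for scale because the gene was chosen on this contrast. Also for scale, 66 of 34316 probe sets in 9311, 69 in LYP9 and 174 in PA64s, APx7 among them, had a difference this low or lower. Nothing is read from these counts either. The order of the leaf groups was 9311, LYP9 and PA64s in the nutrient-deficient state, and the same order, at lower levels, in the nutrient-sufficient state. The nutrient-deficient neighbours did not overlap in their arrays, and the nutrient-sufficient ones did. The share of all probe sets apart between the hybrid and a single parent was not computed, so nothing is read from this order.

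In root APx7 was higher, not lower, in the nutrient-sufficient state. The 9311 root arrays read 8.86, 9.14 and 9.18 (9.06 ± 0.17) in the nutrient-deficient and 9.60, 9.83 and 9.85 (9.76 ± 0.14) in the nutrient-sufficient state. The LYP9 root arrays read 8.95, 8.91 and 9.76 (9.21 ± 0.48) and 9.55, 9.71 and 9.76 (9.67 ± 0.11). The PA64s root arrays read 9.15, 9.40 and 9.20 (9.25 ± 0.13) and 9.64, 9.47 and 9.74 (9.62 ± 0.14). The states were apart in 9311 and PA64s and overlapped in LYP9, where the third nutrient-deficient array lay as high as the nutrient-sufficient ones.

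The root difference of APx7 was 0.70 ± 0.18 in 9311 (1.62-fold), 0.47 ± 0.18 in LYP9 (1.38-fold) and 0.37 ± 0.18 in PA64s (1.29-fold). Without the third nutrient-deficient LYP9 root array the LYP9 value was 0.74. Root arrays were apart in the higher direction for 15.9% of probe sets in 9311, 11.2% in LYP9 and 9.74% in PA64s, and nothing is read from these shares. The summed intensity of the 5 root markers was 7360.4 to 12030.5 over the nutrient-deficient and 14215.5 to 21121.4 over the nutrient-sufficient root arrays. Of these 5 markers 2 were called higher in each genotype. Of all 34316 probe sets kept in root, 1115 in 9311, 720 in LYP9 and 597 in PA64s were called higher. The group mean was higher for 5 in 9311 and for 4 in LYP9 and PA64s, where CASP1 was lower (-0.19 and -0.0013). The widest differences in 9311, LYP9 and PA64s were those of NAS1 (3.77, 2.12 and 2.28) and AMT1;2 (2.13, 1.90 and 1.98). The sum is weighted to bright and strongly differing genes such as NAS1. The part of these markers in the root difference of APx7 was not tested.

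**Figure D2:**
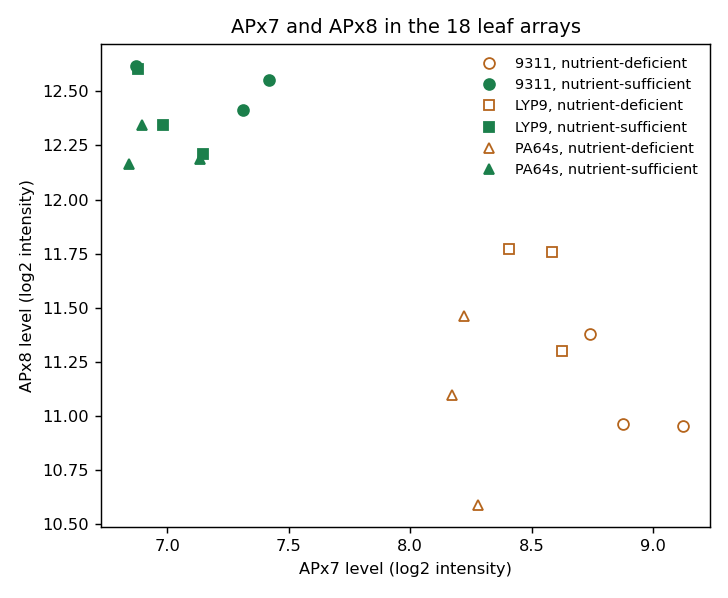
The 18 leaf arrays are placed by the log2 intensity of APx7 (horizontal) and of APx8 (vertical), with genotype as the marker shape and open symbols for the nutrient-deficient state. Nutrient-deficient arrays lie at the lower right (APx7 at least 8.17, APx8 at most 11.77) and nutrient-sufficient arrays at the upper left (APx7 at most 7.42, APx8 at least 12.16).

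Over the 6 leaf group means the correlation of APx7 with APx8 was -0.89, and within each nutrient state the groups overlapped in at least 1 of the genes. This value is a description of 6 means that share the nutrient contrast.

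APx2, the cytosolic form, differed by its leading set less between nutrient states than either plastid form in leaf, and in root it ran opposite to APx7. The mean signal of the leading set stood at percentile 99.7 of all probe sets in leaf and 99.8 in root. The dimmer set 4 (percentile 62.3 in leaf) differed more in leaf, in LYP9 by -0.94 against 0.78 for APx8. Whether the signal level of a set bears on the size of its difference was not tested. The leading set read 13.28, 13.12 and 12.97 in nutrient-deficient leaf of 9311 (13.13 ± 0.15) and 13.07, 13.05 and 13.04 in nutrient-sufficient leaf (13.05 ± 0.01). In LYP9 leaf it read 13.19, 13.18 and 13.12 (13.16 ± 0.04) and 13.03, 13.00 and 13.11 (13.04 ± 0.06). In PA64s leaf it read 13.18, 13.22 and 13.02 (13.14 ± 0.10) and 13.00, 13.06 and 12.99 (13.01 ± 0.04). The leaf states overlapped in 9311 and PA64s and were narrowly apart in LYP9, lower in the nutrient-sufficient state, as for 8.67% of leaf probe sets in LYP9. The 6 leaf means spanned 13.01 to 13.16, and neighbours in their order overlapped.

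The leaf differences of the leading set were -0.07 ± 0.10, -0.12 ± 0.10 and -0.13 ± 0.10 in 9311, LYP9 and PA64s, each close to its standard error. Without the first nutrient-deficient leaf array of 9311 the value for 9311 was 0.0038, and without the third it was -0.15.

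In root the leading set was lower in the nutrient-sufficient state in every genotype. The 9311 root arrays read 12.83, 12.89 and 12.83 (12.85 ± 0.04) in the nutrient-deficient and 12.43, 12.60 and 12.48 (12.50 ± 0.09) in the nutrient-sufficient state. The LYP9 root arrays read 13.13, 12.91 and 12.72 (12.92 ± 0.21) and 12.62, 12.51 and 12.40 (12.51 ± 0.11). The PA64s root arrays read 13.02, 12.80 and 12.80 (12.87 ± 0.12) and 12.76, 12.42 and 12.40 (12.53 ± 0.20). Within each genotype the states did not overlap, though the highest nutrient-sufficient array of PA64s came within the range of the LYP9 nutrient-deficient arrays.

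The root differences of the leading set were -0.35 ± 0.13 in 9311, -0.41 ± 0.13 in LYP9 and -0.35 ± 0.13 in PA64s, which are signals 1.27-fold, 1.33-fold and 1.27-fold lower. Root arrays were apart in the lower direction in all 3 genotypes for 1.83% of probe sets, and nothing is read from that share. The 3 nutrient-deficient root means stood above the 3 nutrient-sufficient ones, and within a state the genotypes overlapped.

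The other probe sets of APx2 gave the same direction in root with larger differences. Set 2 gave -0.41, -0.51 and -0.50 (SE 0.14) in 9311, LYP9 and PA64s, with no overlap of the states in any of them. Set 3 gave -0.69, -0.43 and -0.91 (SE 0.22), and its states were apart in 9311 and PA64s, where 11.9% and 9.3% of root probe sets were apart in the lower direction, and overlapped in LYP9. Without the second nutrient-deficient LYP9 root array the LYP9 value of set 3 was -0.15. Set 4 gave -0.88, -0.88 and -0.99 (SE 0.16), with no overlap, in a fit without the filter because its root signal was low (mean 5.66). With quantile normalization the 9311 root value of set 2 was -0.67.

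In leaf the APx2 probe sets differed among themselves. Set 4 had the widest gap of the APx2 sets. Its arrays read 7.51, 6.82 and 6.62 in nutrient-deficient and 6.35, 6.43 and 6.23 in nutrient-sufficient 9311 leaf. In LYP9 leaf set 4 read 7.50, 7.15 and 6.95 against 6.49, 6.31 and 5.96, and in PA64s leaf 7.40, 7.75 and 7.08 against 6.34, 6.67 and 6.24. The states of set 4 were apart in all 3 genotypes, as for 3% of leaf probe sets in this direction, with differences of -0.65, -0.94 and -0.99 (SE 0.23). Without the first nutrient-deficient array of 9311 the 9311 value of set 4 was -0.38. Set 2 gave -0.20, -0.22 and -0.28 (SE 0.11), with the states apart in LYP9 and in PA64s, where 10.3% of leaf probe sets were apart in the lower direction. With quantile normalization the PA64s leaf value of set 2 was -0.53. Leaving out 1 array in turn moved the 9311 leaf value of set 2 from -0.30 (without the third nutrient-deficient array) to -0.10 (without the first). Set 3 gave -0.25, -0.23 and 0.06 (SE 0.18), with overlap in each genotype. Its leave-one-out values ran from -0.42 (without the third nutrient-deficient array) to -0.10 (without the third nutrient-sufficient one) in 9311. In LYP9 they ran from -0.40 to -0.13 (without the third and the second nutrient-deficient array), and in PA64s from -0.02 to 0.18 (without the second and the first).

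Over the 6 leaf group means the leading set correlated with set 2 at 0.98, with set 4 at 0.92 and with set 3 at 0.51. Over the 6 root means the corresponding values were 1.00, 0.99 and 0.92. These are descriptions of means that share their arrays. The transcripts that each set detects were not examined.

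**Figure D3:**
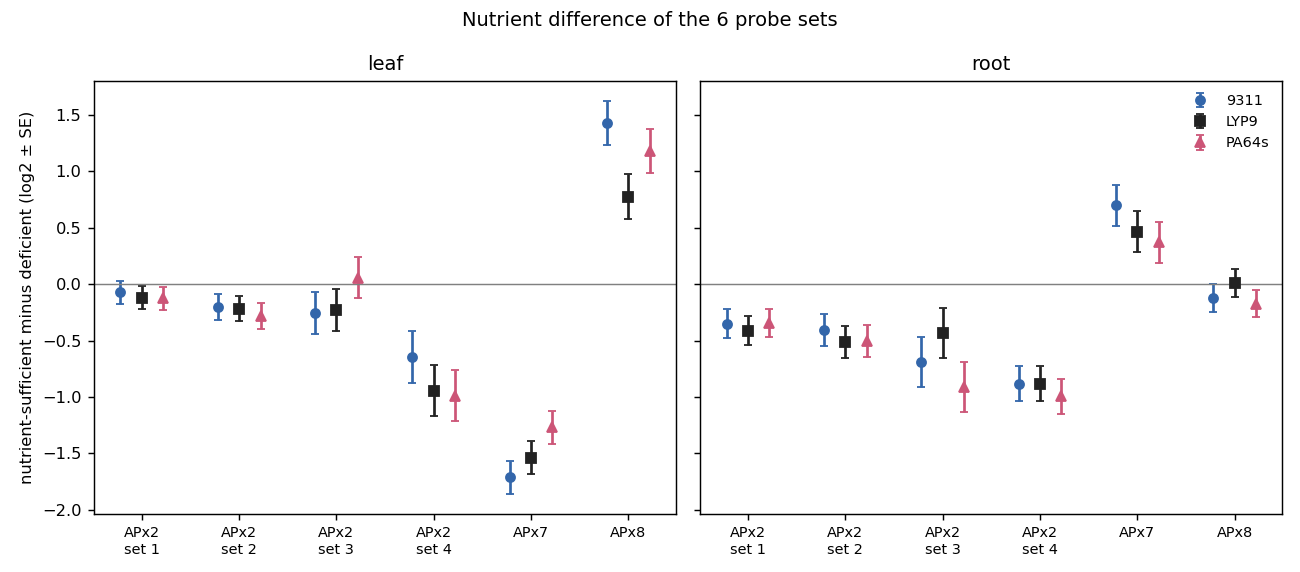
The nutrient difference (nutrient-sufficient minus nutrient-deficient, log2 units, bars are 1 SE from limma) is shown for the 6 probe sets in leaf (left) and root (right), with 1 symbol for each genotype. APx7 lies at -1.71 to -1.27 in leaf and 0.37 to 0.70 in root, APx8 at 0.78 to 1.43 in leaf and near 0 in root, and all 4 APx2 sets lie below 0 in root.

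Between tissues, APx8 stood apart from the other members. Averaged over all groups, its signal was 5.90 ± 0.07 log2 units higher in leaf than in root (59.7-fold), and no root array reached the lowest leaf array. Leaf and root arrays were apart in this direction for 14% of the 34316 probe sets kept over all 36 arrays, and nothing is read from that share. Because the root signal lay near the filter level, the fold rests on a low denominator, and with 16 added to each intensity the difference was 5.57.

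APx7 was on average 1.62 ± 0.07 log2 units higher in root (3.08-fold), but its arrays overlapped between the tissues: nutrient-deficient leaf of 9311 reached 9.12 and nutrient-deficient root began at 8.86. The leading set of APx2 was 0.39 ± 0.04 higher in leaf, with overlapping arrays. Quantile normalization over all 36 arrays turned that sign (-0.15). Sets 2 and 4 of APx2 were higher in leaf by 0.44 and 1.11 and set 3 was lower by 0.99, so the APx2 probe sets gave no single direction between tissues.

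Between the parents, the clearest gap in a member was that of APx7 in nutrient-deficient leaf. There 9311 exceeded PA64s by 0.69 ± 0.15 (1.61-fold), with no overlap of their arrays, as for 12% of leaf probe sets. In nutrient-sufficient leaf the APx7 gap was 0.24 ± 0.15, with overlap, and over both states it was 0.46 ± 0.10. The nutrient-sufficient gap was 0.13 without the second nutrient-sufficient 9311 array and 0.41 without the first. The nutrient difference of APx7 was more negative in 9311 than in PA64s by 0.45 ± 0.21 in leaf. Without the first nutrient-sufficient 9311 array the leaf value, 9311 minus PA64s, was -0.28. The root gap between their nutrient differences was 0.33 ± 0.26.

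APx8 was 0.30 ± 0.20 higher in 9311 than in PA64s in nutrient-sufficient leaf, where the arrays of the parents were apart, as for 9.72% of leaf probe sets. In nutrient-deficient leaf the APx8 gap was 0.05 ± 0.20, and it ran from -0.18 to 0.25 without the first and the second nutrient-deficient PA64s array. The leading set of APx2 differed between the parents by 0.01 ± 0.07 in leaf and -0.02 ± 0.09 in root, and APx7 in root by -0.02 ± 0.13. The arrays of both parents overlapped in each of these 3 cases.

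The hybrid was compared with the mid-parent value, the mean of both parents on the log2 scale. In nutrient-deficient leaf APx8 was 0.54 ± 0.17 above the mid-parent (1.45-fold), with LYP9 arrays at 11.30 to 11.77 and the highest parental array at 11.46, so the arrays overlapped. In nutrient-sufficient leaf APx8 lay 0.01 ± 0.17 from the mid-parent, and the deviation was 0.53 ± 0.24 lower there than in the nutrient-deficient state. By arithmetic this is also the amount by which the nutrient difference of LYP9 fell short of the mean of the parents' differences.

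For APx7 the mid-parent deviation in leaf was -0.03 ± 0.13 in the nutrient-deficient and -0.08 ± 0.13 in the nutrient-sufficient state. In root it was 0.05 ± 0.16 and -0.01 ± 0.16. The leading set of APx2 lay 0.03 ± 0.09 and 0.01 ± 0.09 from the mid-parent in leaf, and 0.06 ± 0.11 and -0.01 ± 0.11 in root. For APx8 in root the deviations were -0.08 ± 0.11 and 0.07 ± 0.11. LYP9 arrays overlapped parental arrays in each of these comparisons.

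Genes with the most similar pattern were ranked by Pearson correlation over the 12 group means, each minus the mean of its tissue, among 2381 probe sets of 1972 genes with a name that passed the filter in both tissues. The ranking gives a likeness of these means and no p. For APx8 the first was PSAG, a subunit of photosystem I, at 0.99, a gene whose other probe set is among the photosynthesis markers. The ranked probe set differed between the states in leaf by 1.44, 0.76 and 1.07 in 9311, LYP9 and PA64s. The other PSAG probe set, which also passed the filter, differed by 0.27, -0.07 and 0.15 and correlated with APx8 at 0.32, so the likeness is that of 1 PSAG probe set and not of the gene. Next came ADI1 (0.98), GluTR (0.97), the glutamyl-tRNA reductase that begins chlorophyll synthesis, ELA3 (0.97) and CLA1 (0.97), named for the enzyme that begins plastid isoprenoid synthesis in Arabidopsis. The leaf nutrient differences of GluTR were 2.65, 2.21 and 2.29, and those of CLA1 were 1.92, 1.07 and 1.32. Over the 6 root means alone, GluTR correlated with APx8 at -0.27 and the other ranked probe sets at 0.58 to 0.67, so the likeness lay mainly in leaf. The 3 further probe sets of ADI1 correlated with APx8 at 0.91 to 0.98, and the other CLA1 set, below the filter in both tissues, at 0.81.

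For APx7 the first was BHLH063, a basic helix-loop-helix factor, at 0.96. Like APx7 it was lower in nutrient-sufficient leaf (-1.53, -1.60 and -1.47 in 9311, LYP9 and PA64s) and higher in nutrient-sufficient root (1.18, 0.95 and 0.62). IAA1, an Aux/IAA protein of the auxin pathway, followed at 0.95, then BASS2 at 0.93, OsRFC5 at 0.92 and the MADS-box factor mads47 at 0.91. For IAA1 the likeness lay in leaf (correlation 1.00 over 6 means) more than in root (0.39). The same held for mads47 (0.98 and 0.275) and OsRFC5 (0.95 and 0.68). A correlation does not measure size. The leaf differences in 9311, LYP9 and PA64s were -0.16, -0.13 and -0.22 for OsRFC5, -0.47, -0.40 and -0.29 for mads47, and -0.39, -0.53 and -0.63 for BASS2. All of these are smaller than those of APx7. In PA64s root mads47 was lower in the nutrient-sufficient state (-0.16). The 3 further probe sets of BASS2 correlated with APx7 at 0.91, 0.88 and, for a set below the filter in both tissues, 0.46.

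For the leading set of APx2 the first were OsTBL13 (0.97), MHX1 (0.97), ARF2 (0.96), the calcium and calmodulin-dependent kinase CCAMK (0.94) and the sugar transporter OsSWEET14 (0.94). The root differences of MHX1, named for a vacuolar magnesium and zinc exchanger of Arabidopsis, were -0.92, -1.18 and -1.14. For OsSWEET14 they were -0.89, -1.30 and -0.65. The likeness of CCAMK and OsSWEET14 lay in root (0.97 and 0.98 over 6 means) more than in leaf (0.53 and 0.57). The other probe sets of MHX1, ARF2 and OsSWEET14 correlated with the leading set of APx2 at 0.97, 0.91 and 0.94, but that of CCAMK at -0.46.

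The rest of the family and the enzymes around it were listed by function, though with earlier results of these data known. They were tested with Benjamini-Hochberg adjustment over all probe sets kept in a tissue and a call at an adjusted p under 0.05. The adjustment does not cover the choice of the lists. The lists held 17 genes with a probe set: 4 other ascorbate peroxidases and 13 genes of ascorbate recycling, ascorbate synthesis, superoxide dismutase, catalase and peroxiredoxin. In leaf, 3 of 17 were called higher and 0 lower in nutrient-sufficient 9311, where 11.9% of all probe sets were called in either direction. In LYP9 leaf 2 were called higher and 0 lower (background 8.85%), and in PA64s leaf 0 higher and 1 lower (background 7.73%). Each count lay within 1 gene of that share of 17. The median differences of the 17 genes were 0.18, 0.25 and 0.14, against 0.06, 0.07 and 0.07 over all probe sets.

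Of the other ascorbate peroxidases, APx6 was the one called in leaf. It rose by 0.54 ± 0.12 in 9311 (adjusted p = 0.0112, limma) and by 0.61 ± 0.12 in LYP9 (adjusted p = 0.00686), and its PA64s value was 0.25 ± 0.12 (adjusted p = 0.224). The APx6 leaf arrays read 8.51, 8.73 and 8.37 in nutrient-deficient and 9.14, 9.07 and 9.0 in nutrient-sufficient 9311. Without the third nutrient-deficient array of 9311 the APx6 value there was 0.45 (adjusted p = 0.0582, limma). In 9311 and LYP9 the APx6 value had the same sign as that of APx8 and was the lower number, in LYP9 beside 0.78 ± 0.20 for APx8. The sizes of the 2 genes were not compared by a test. Whether the PA64s response of APx6 differed from its LYP9 response was not tested.

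APx1, the other cytosolic form, had leaf values of -0.01 ± 0.14, 0.25 ± 0.14 and 0.09 ± 0.14 in 9311, LYP9 and PA64s. APx4, a peroxisomal form, had 0.09, 0.04 and 0.14 (SE 0.10). APx5 had -0.02, 0.00 and 0.12 (SE 0.17). None of these 9 values was called by limma, and none had an unadjusted p under 0.05. No probe set was matched to APx3.

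Among the ascorbate recycling enzymes, the monodehydroascorbate reductase MDAR5 rose in 9311 leaf by 0.56 ± 0.16 (adjusted p = 0.0356, limma), with values of 0.46 in LYP9 and 0.23 in PA64s that were not called. The MDAR5 call was lost without the first or the third array of either 9311 leaf group (adjusted p = 0.0943 to 0.138, limma) and with quantile normalization (0.0554). The glutathione reductase RGRC2 fell by 0.49 ± 0.12 in PA64s leaf (adjusted p = 0.0188, limma), with values of -0.36 in 9311 and -0.19 in LYP9 that were not called. GME-2, a GDP-mannose epimerase of ascorbate synthesis, rose by 0.64 ± 0.13 in 9311 leaf (adjusted p = 0.00557, limma) and by 0.55 ± 0.13 in LYP9 leaf (adjusted p = 0.0186), with 0.19 in PA64s. The RGRC2 call was lost without the third nutrient-sufficient or the first or the second nutrient-deficient PA64s array (adjusted p = 0.0508 to 0.102, limma). The GME-2 call in LYP9 was lost without the first nutrient-sufficient or the second or the third nutrient-deficient LYP9 array (adjusted p = 0.0519 to 0.0948). The other epimerase gene, GME-1, had leaf values of 0.80, 0.83 and 0.92 with a standard error of 0.39, and was not called.

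The leading sets of the 4 superoxide dismutase and 2 catalase genes were not called by nutrient state in either tissue. The plastid superoxide dismutase sodCp, which forms the hydrogen peroxide that plastid ascorbate peroxidases remove, had leaf values of 0.41, 0.27 and 0.21 (SE 0.18). For CatB, 2 further probe sets were called lower in 9311 leaf, at -0.59 and -0.67 (adjusted p = 0.0336 and 0.0162, limma), beside -0.34 for its leading set.

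In root 1 of 16 genes was called in each genotype, all higher in the nutrient-sufficient state. The backgrounds were 5.89% in 9311, 3.46% in LYP9 and 3.33% in PA64s. APx6 rose by 0.55 ± 0.14 in 9311 root (adjusted p = 0.0343, limma), with 0.16 and 0.01 in LYP9 and PA64s. MDAR5 rose by 0.86 ± 0.20 in LYP9 root (adjusted p = 0.0297, limma) and by 0.99 ± 0.20 in PA64s root (adjusted p = 0.013), with 0.41 in 9311. The APx6 call was lost without any 1 of 5 of the 6 9311 root arrays, all but the third nutrient-sufficient one (adjusted p = 0.0807 to 0.164, limma), and with median centring (0.0509). The MDAR5 call was lost in LYP9 without the second or the third nutrient-sufficient or the first or the second nutrient-deficient array (adjusted p = 0.107 to 0.125). In PA64s it was lost without the second nutrient-sufficient (0.0562) or the third nutrient-deficient array (0.0665). The root values of APx1 were 0.35, -0.12 and -0.19 (SE 0.13) and those of APx4 0.23, -0.13 and -0.15 (SE 0.11), none of them called. The APx4 states were apart in 9311 (higher, as for 15.9% of root probe sets) and in LYP9 (lower, as for 9.27%). The median differences of the 16 genes in root were 0.25, 0.00 and -0.09, against 0.05, 0.01 and -0.01 over all probe sets.

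**Figure D4:**
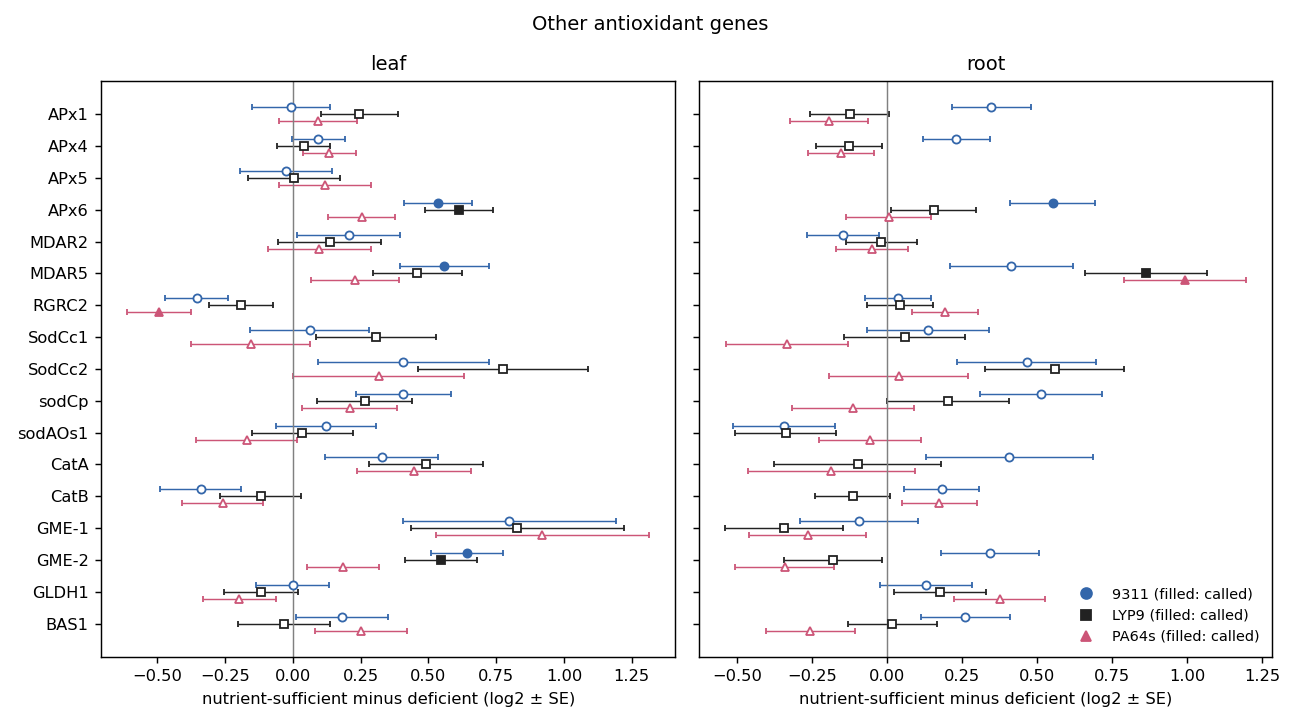
The nutrient difference (log2 units, bars are 1 SE from limma) of the other antioxidant genes is shown for leaf and root, with 1 symbol for each genotype and filled symbols for calls at an adjusted p under 0.05. APx6, MDAR5 and GME-2 hold the calls above 0 in leaf and RGRC2 the call below 0.

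Between the parents, averaged over both states, 3 of the 17 genes were called in leaf, all lower in 9311 than in PA64s, where 11.9% of all probe sets were called. APx5 was lower by 0.62 ± 0.12 (adjusted p = 0.00179, limma), the catalase CatA by 0.55 ± 0.15 (adjusted p = 0.0214) and GME-1 by 1.11 ± 0.28 (adjusted p = 0.0135). The CatA call was lost without the first nutrient-sufficient or the first or the second nutrient-deficient array of 9311, or the second nutrient-sufficient or the second or the third nutrient-deficient array of PA64s (adjusted p = 0.0513 to 0.0656, limma). The APx5 signal was near the filter level in leaf and below it in root. In root 2 of 16 genes were called, against a background of 13.3%, both higher in 9311. APx4 was higher by 0.26 ± 0.08 (adjusted p = 0.0416, limma) and GME-2 by 0.49 ± 0.12 (adjusted p = 0.00981). The APx4 call was lost without any 1 of 12 of the 18 root arrays (adjusted p = 0.0524 to 0.115, limma), kept without any of the other 6, and lost with median centring (0.0792), without the filter (0.0532) and with the trend and robust options (0.05).

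In each state separately, 5 of 16 genes were called between the parents in nutrient-sufficient root, against a background of 18.8%, and 0 in nutrient-deficient root (background 4.34%), where 1 had an unadjusted p under 0.05. Higher in 9311 were APx1 by 0.45 ± 0.13 (adjusted p = 0.0271, limma), APx4 by 0.45 ± 0.11 (0.0125), GME-2 by 0.83 ± 0.16 (0.00276) and the peroxiredoxin BAS1 by 0.55 ± 0.15 (0.0204). MDAR5 was lower in 9311, at -0.73 ± 0.20 (adjusted p = 0.024). Without the second nutrient-sufficient PA64s root array only the GME-2 call was left. Without the first or the second 9311 array or the third PA64s array of that state, 1 or more of the other calls were lost. The adjusted p was 0.0505 to 0.112 over all these losses (limma). Without the third 9311 or the first PA64s array of that state none was lost. The APx1 call was also lost with median centring (0.0588). Median centring moved the split of all calls in nutrient-sufficient root from 3005 higher and 3438 lower to 2070 and 4087. In leaf 1 of 17 genes was called in the nutrient-sufficient state (background 6.75%), APx5, lower in 9311 at -0.70 ± 0.17 (adjusted p = 0.0175, limma). That call was lost without the second nutrient-sufficient array of 9311 or the second or the third of PA64s (adjusted p = 0.0553 to 0.105). In nutrient-deficient leaf 0 genes were called (background 6.26%) and 3 had an unadjusted p under 0.05.

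No pathway gene was called against the mid-parent by limma in either tissue or state, and none had an unadjusted p under 0.05. The backgrounds were 0.822% and 0.906% of probe sets in nutrient-sufficient and nutrient-deficient leaf, and 0.72% and 0.513% in root. For the change of that deviation between states, limma called 0% of all probe sets in leaf and in root. The nutrient difference of 9311 and that of PA64s were called unlike for 0 pathway genes in leaf and root, against 0.0175% and 0.00874% of all probe sets at the same adjusted threshold. At an unadjusted p under 0.05 (limma) the counts were 1 of 17 in leaf and 6 of 16 in root. The share of all probe sets at the unadjusted threshold was not computed for any contrast, so nothing is read from the unadjusted counts.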

How the data were processed

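Log2 levels of 36 Affymetrix rice arrays were compared, 12 groups of 3 by genotype, tissue and nutrient state, with groups taken from the labels. The deposited table holds 1 linear intensity per probe set and array, with a lowest value of 1, and the authors' submitted processing notes name RMA and affy without a version. The scaling behind the linear values and the genome build are not given in the sources used here. Values entered every fit as log2 of the authors' deposited intensity, with no further normalization.

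The 187 control probe sets were left out, and the upper 60% by mean log2 value in a tissue (34316 probe sets) was kept. One model per tissue (18 arrays, 6 groups) was fitted with limma 3.58.1 in R 4.3.3 (lmFit and eBayes, 12 residual degrees of freedom), two-sided, with Benjamini-Hochberg adjustment over all probe sets kept. Leaf minus root came from 1 model over all 36 arrays. The code was tested on simulated data.

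Genes were named through the platform annotation: 22436 probe sets carried 1 gene, 95 several and 34663 were not listed. The members and lists were chosen with earlier results of these data known. Named genes were all probe sets of the 3 members, every other ascorbate peroxidase, the called genes of the other lists, and the 5 named genes most like each member. Lists were matched by gene synonym, since the reference table gave no product names, so enzymes without a match there (dehydroascorbate reductase among them) were not analysed here. A gene with several probe sets is represented by the set with the highest mean.

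Groups share replicate numbers in the labels. Deviations of same-numbered arrays of one genotype from their group means correlated between -0.21 and 0.51 across nutrient states. Of 9 such pairs in each tissue, 6 in leaf and 3 in root were over 0.1. In leaf the pairs of replicates 1 and 3 lay between 0.28 and 0.47, and those of replicate 2 between -0.21 and 0.01. Between leaf and root of one genotype and state, 12 of 18 pairs were over 0.1. The main fits did not take the numbers to pair the arrays, so their errors and calls make no allowance for a shared replicate effect. Whether there was such an effect was not tested. With a replicate block, calls over all probe sets in 9311 leaf numbered 4029 higher and 2041 lower, against 2731 and 1362 without it. Alternatives tried were quantile normalization, median centring, no filter, 1 fit over all 36 arrays, trend and robust options, a replicate block, 16 added to each intensity, the mean of all probe sets of APx2, and leaving out each array in turn.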

Additional observations from a re-analysis of the deposited data

Results flagged for a closer look

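APx7 differed between nutrient states in opposite directions in leaf and root. In 9311 the difference, nutrient-sufficient minus nutrient-deficient, was -1.71 in leaf and 0.70 in root, and the arrays of both states were apart in both tissues. In PA64s it was -1.27 in leaf and 0.37 in root, also with the arrays apart. The difference between the tissues was not tested, since the gene was chosen with these values known.

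APx4, a peroxisomal form, had root values of opposite sign in 9311 (0.23) and LYP9 (-0.13), with the arrays of both states apart in each, as for 15.9% of root probe sets in the higher direction in 9311 and 9.27% in the lower direction in LYP9. The difference between these genotypes was not tested, and neither value was called by limma. Groups held 3 arrays, so single arrays were not tested as outliers.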

How the results depend on the processing

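For all 6 probe sets of the members, 537 of 564 differences recomputed under the other settings moved by less than the spread between replicates. So did 827 of 828 without 1 array. No filter, the fit over both tissues, the trend and robust options and the replicate block cannot change a difference of group means. They alter only the error or the probe sets kept, so many of the 564 stayed the same by construction. Leaving out 1 array shifts a group mean by only part of that group's spread, so most of the 828 could hardly exceed it. Neither count is read as evidence of stability. No APx7 or APx8 nutrient difference in leaf or APx7 nutrient difference in root changed sign under any alternative run. Where the arrays of both states were apart, leaving out 1 array could not turn the sign. The unchanged signs are thus not read as evidence of stability either. APx2 moved most. With quantile normalization its leading set gave -0.20, -0.19 and -0.40 in leaf of 9311, LYP9 and PA64s, and -0.55 in 9311 root. Median centring gave -0.19 in LYP9 leaf. The mean of the 4 probe sets gave -0.29, -0.38 and -0.34 in leaf, and -0.58 in 9311 root and -0.69 in PA64s root. With quantile normalization its mid-parent deviation was -0.10 in nutrient-deficient leaf and 0.11 for the change between states, and leaf minus root was -0.15. Leaf minus root of APx8 was 5.63 with quantile normalization and 5.57 with 16 added. With quantile normalization set 2 gave -0.32 in LYP9 leaf, and with median centring -0.29. The parental difference of the leading set in the nutrient-deficient state was -0.16 in leaf and 0.10 in root with quantile normalization. With 16 added, set 4 gave -0.66, -0.67 and -0.76 in root. The cause of these shifts was not tested. The mid-parent change of APx7 in root ran from -0.22 (without the second nutrient-deficient LYP9 array) to 0.21 (without the third).

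With a replicate block, called pathway genes in leaf numbered 5, 4 and 2 in 9311, LYP9 and PA64s, against 3, 2 and 1. The numbers were not taken to pair the arrays. Median centring gave 0 calls in 9311 root. Between the parents in root, no filter gave 1 call, the trend and robust options 1, and the fit over all 36 arrays 4. In leaf, parental calls by state became 2 and 1 in the fit over all 36 arrays, and 3 and 2 with the block, in the nutrient-sufficient and nutrient-deficient state. Without 1 array in turn the leaf counts ran from 1 to 4, 1 to 3 and 0 to 2, the root counts from 0 to 1 in each genotype, and the parental root count from 1 to 3. By state the parental counts ran from 1 to 6 and 0 to 1 in root, and from 0 to 2 and 0 to 1 in leaf. Centring each array moved the split of all called probe sets in 9311 leaf from 2731 higher and 1362 lower to 2334 and 1856, in LYP9 leaf from 2127 and 910 to 1646 and 1301, and in PA64s leaf from 1720 and 932 to 1274 and 1292. With quantile normalization these splits were 2274 and 2461, 1444 and 1705, and 1275 and 1484. With 3 arrays a group, signals near the filter level, as APx8 in root, carry little information on small differences.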
